A study of Mus musculus with 9 samples.

Results

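DNA replication genes encode the proteins that prepare origins, open the double helix, copy both strands and supply the deoxynucleotides. They were followed here by 47 listed genes, all found in the count files, and a gene was described where its mean level over the 9 libraries was at least 5 CPM (a gene's counts relative to the total of its library). That left 46 of the 47, among 12844 genes tested, in 4 roles: 15 licensing genes, 8 helicase activation genes, 19 polymerase and fork genes, and 4 nucleotide supply genes. The gene left out was Fen1, the flap endonuclease that trims Okazaki fragments, with a mean of 2.38 CPM. Of its 31-base words, 79.6% also occur in transcripts of other genes, read on either strand. The lowest gene inside the limit was Orc1, with a mean of 7.23 CPM. The limit is on a mean over all days. Orc1 and Gins1 were below 5 normalised CPM (defined below) in every library of days 3 and 5. They therefore met the limit only through day 0. Cdc6 was above 5 later only in the Fkbp4 knockdown at day 5 (5.46).

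The cells were C2C12, an established mouse myoblast line that stops dividing and fuses into myotubes when growth serum is removed. They grew in medium with 10% fetal bovine serum and were seeded into wells before the start. At day 0 they were rinsed and moved to medium with 1% insulin-transferrin-selenium, and the labels then name medium with HS, without spelling out the letters. The 3 groups were a control, a knockdown of Fkbp4 and a knockdown of Fkbp5, immunophilins that bind Hsp90, and none of them is labelled with a further treatment or allele. The labels do not say how the genes were knocked down, what the control carried, or whether a group was 1 clone. RNA was collected at days 0, 3 and 5, with 1 library for each genotype and day, so a genotype had its 3 days, and a day its 3 genotypes, in place of replicates. All p-values measure the spread left after their fit, which may be technical. In the fit of genotype and day as additive terms, that spread also holds any genotype effect that differs between days.

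Before replication, the origin recognition complex (Orc1 to Orc6), Cdc6 and Cdt1 load the ring of Mcm2 to Mcm7 onto origins, a step called licensing that Gmnn blocks once S phase has begun. The kinase Cdc7 with its partner Dbf4, and Mcm10, Cdc45 and the GINS subunits, then turn the loaded ring into an active helicase. Primase and the polymerases alpha, delta and epsilon copy the strands, and the replication factor C subunits load the Pcna clamp. Ribonucleotide reductase, thymidylate synthase and thymidine kinase supply deoxynucleotides. Many of these genes are known targets of E2F factors, which are active in cycling cells and held back by the retinoblastoma protein after cell cycle exit.

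Promoter sequences were searched for words known from promoters of S-phase genes. A promoter window from 250 bases before to 50 bases after the start was found for 38 of the 46 described genes among 27025 genes (RefSeq, GRCm38.p6). Windows were searched on both strands for TTTGGCGC, TTTGCCGC, TTTCGCGC and TTTCCCGC, which are forms of the E2F consensus, and for the CCAAT box, and a gene with several start sites counted if any window held the word. An E2F word occurred in 15 of the 38 genes (39.5%) and in 2.6% of all 27025, so 23 of the 38 held none. CCAAT occurred in 60.5% of the 38 and in 41.1% of all. Among the genes with a word were Mcm3, Mcm5, Mcm6, Mcm7, Orc1, Cdc6, Cdt1, Pola1 and Rfc3, and among those without one were Pcna, Tk1, Rrm1, Rrm2 and Mcm2. The 150 bases before the start are printed for 5 genes, 5′ to 3′, with E2F words in capitals. A word on the other strand reads in reverse complement, as GCGCGAAA does. Mcm6 (chr1:128359706-128359855, minus strand) and Orc1 (chr4:108579304-108579453, plus strand) are shown as genes that carry a word and fell strongly. Orc3 (chr4:34614943-34615092, minus strand) and Gins3 (chr8:95633409-95633558, plus strand) are shown because they carry a word too, while their change by day 5 did not pass the test. Tk1 (chr11:117826015-117826164, minus strand) had the largest fall and no word in its window.
Mcm6: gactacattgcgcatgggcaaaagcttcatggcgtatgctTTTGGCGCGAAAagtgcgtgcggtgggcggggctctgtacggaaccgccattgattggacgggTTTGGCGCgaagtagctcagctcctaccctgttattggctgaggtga
Orc1: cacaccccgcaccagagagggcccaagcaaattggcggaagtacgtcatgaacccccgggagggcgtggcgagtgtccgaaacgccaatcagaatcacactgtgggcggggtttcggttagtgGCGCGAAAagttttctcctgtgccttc
Orc3: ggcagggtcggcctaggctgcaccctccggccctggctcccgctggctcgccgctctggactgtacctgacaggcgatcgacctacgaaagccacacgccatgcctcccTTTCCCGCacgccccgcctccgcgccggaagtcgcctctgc
Gins3: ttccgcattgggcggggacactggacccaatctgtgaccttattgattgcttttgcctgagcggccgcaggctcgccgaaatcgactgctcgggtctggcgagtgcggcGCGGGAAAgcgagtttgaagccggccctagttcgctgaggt
Tk1: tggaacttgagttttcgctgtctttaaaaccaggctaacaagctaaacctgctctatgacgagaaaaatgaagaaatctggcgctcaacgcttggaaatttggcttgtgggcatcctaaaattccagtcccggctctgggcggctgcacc
The words of Mcm6 begin, the first pair overlapping, at 110, 106 and 47 bases before the start, that of Orc1 begins at 27 bases before it, and those of Orc3 and Gins3 at 41 bases before it. Starts are those of RefSeq. For Mcm6, unlike the other genes printed, the end of the window was in no GENCODE M21 transcript of the gene, so its start is less certain. By day 5, an E2F word occurred in 13 of the 35 genes with a window that were called lower than at day 0 and in 2 of the 3 that were not. A match is a description of the letters and not a bound site, and a window without one says only that these letters are not in it.

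Libraries held 3932372 to 5568486 counts, a range of 1.42-fold. A gene with 3 counts stood at 0.539 to 0.763 CPM depending on the library, and duplicate reads were not separated, so count intervals cover counting error only. Levels below are normalised CPM, that is CPM after scaling by trimmed mean of M-values (TMM) factors. Fkbp4 was 4.87-fold lower in its knockdown (log2 −2.28, SE 0.12, adjusted p = 1.97e-05) and Fkbp5 was 3.29-fold lower in its own (log2 −1.72, SE 0.24, adjusted p = 0.00841), while the change of Fkbp4 in the Fkbp5 knockdown was 0.06 and that of Fkbp5 in the Fkbp4 knockdown 0.17. All 6 myoblast markers were present and higher at day 3 than at day 0, and all 8 myotube markers rose with a median of 5.32 on the log2 scale. Of the 5 adipocyte markers, Adipoq, Plin1, Cidec and Lep were at 0 counts in all 9 libraries. Fabp4 had 0.00 to 0.63 CPM in 8 libraries and 2.4 in the day 5 library of the Fkbp5 knockdown. The summed osteoblast and chondrocyte markers reached at most 0.44 CPM. The 6 immune and endothelial markers summed to 0.72 to 4.84 CPM, with Cd68 among them at 0.72 to 3.74. The share of counts on mitochondrially encoded genes was 1.78% to 5.01% in 8 libraries and 10.1% in the day 5 library of the Fkbp5 knockdown.

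Replication genes fell together over the first 3 days of differentiation. Their summed level dropped from 4688 at day 0 to 1706 at day 3 and 1308 at day 5 in the control, from 4894 to 1512 and 1502 in the Fkbp4 knockdown, and from 4357 to 1545 and 1335 in the Fkbp5 knockdown. At day 5, 27.9%, 30.7% and 30.6% of the day 0 sum were left. In the edgeR quasi-likelihood fit with genotype and day as additive terms, 42 of the 46 were called lower at day 3 than at day 0 and 0 higher, with a median log2 change of −1.68, where 25.8% of all genes tested were called lower and the median of all genes was 0.00. At day 5, 43 were lower and 0 higher, with a median of −1.90, where 28.6% of all genes were called lower. Both counts include Orc1, Cdc6 and Gins1, which met the CPM limit through their day 0 levels. The 3 day 0 libraries all stood above all 6 later ones for 42 of the 46, against 21.9% of all genes. The 4 exceptions were Orc3, Orc4, Gins3 and Rfc1. In bulk RNA, fewer cycling cells and less RNA per cell cannot be told apart. The 5 proliferation markers (Mki67, Ccna2, Ccnb1, Cdk1 and Top2a) were all called lower too, with a median of −2.37 at day 5, and their summed level fell from 1395 to 241 in the control.

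**Figure D1:**
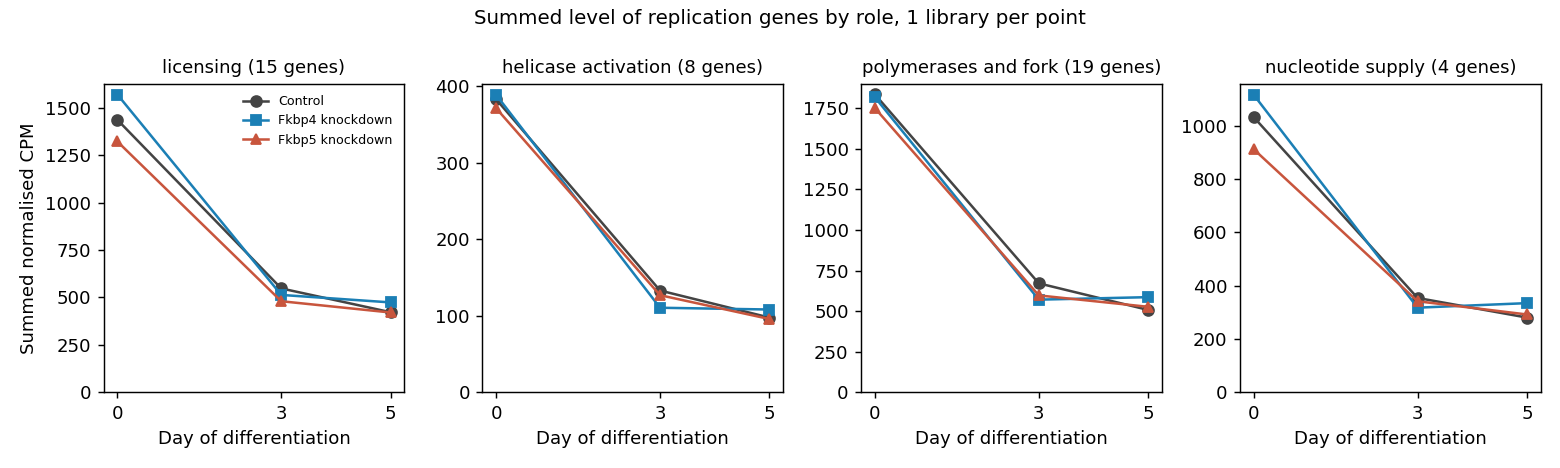
Summed normalised CPM (y axis) of the described genes in each role against the day of differentiation (x axis), 1 library per point, with the control, the Fkbp4 knockdown and the Fkbp5 knockdown as separate lines. In every role the sums at days 3 and 5 lie at 38.1% or less of the day 0 sum of the same genotype.

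Licensing genes had a median change of −2.06 at day 5 (4.17-fold lower), with 14 of the 15 called lower. Mcm2 to Mcm7 form 1 ring, and all 6 fell, by 1.84 (Mcm4) to 2.92 (Mcm5) on the log2 scale. Mcm5 stood at 156, 37.5 and 18.1 normalised CPM at days 0, 3 and 5 in control cells, at 166, 36.9 and 24.1 in the Fkbp4 knockdown and at 128, 32.4 and 17.2 in the Fkbp5 knockdown. Every library was lower than the one before it in its genotype, and the levels of the 3 days did not overlap. It was the only member called between day 3 and day 5 (log2 −0.84, SE 0.12, adjusted p = 0.00318), where 2.39% of all genes were called lower, and the call was lost when the control genotype was left out (−0.75, adjusted p = 0.0638). Per kilobase of exon, the 6 ring genes lay within 2.24-fold of each other in the control at day 0, from 17.8 for Mcm2 to 39.8 for Mcm3, and within 2.18-fold at day 5. For this and all per kilobase values below, exon length counts every annotated exon base of a gene over all its transcripts. It was 6956 bases for Mcm2 and 3589 (Mcm4) to 4666 (Mcm6) for the others. Mcm2 had 123.5 normalised CPM at day 0 against 99.5 for Mcm4, so its place as lowest follows from its exon length.

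The subunits of the origin recognition complex had falls of unequal size, and such differences between genes were not tested here. Orc1, its ATPase subunit, went through 16.3, 3.3 and 2.17 at days 0, 3 and 5 in control cells, 14.4, 2.47 and 2.94 in the Fkbp4 knockdown and 17.8, 4.3 and 1.09 in the Fkbp5 knockdown. The day 0 libraries were all above the later ones, the fall by day 5 was 7.65-fold (log2 −2.94, SE 0.32, adjusted p = 2.11e-05), and the lowest library rested on 5 reads. Orc1 met the CPM limit only through day 0, so the limit could admit it only as a gene higher on that day. Orc6 fell by 1.79, Orc5 by 1.23 and Orc2 by 0.96, all called. Orc3 was 63.4, 61.6 and 63.6 in control cells, 64.5, 66.8 and 61.1 in the Fkbp4 knockdown and 65.5, 52.8 and 59.6 in the Fkbp5 knockdown. Its days overlapped, and the day 5 difference was −0.07 (SE 0.10, adjusted p = 0.587), turning to 0.02 without the day 0 library of the Fkbp5 knockdown. Orc4, the member with the highest mean CPM of the 15, held 105, 96.8 and 76.9 in control cells, 95.7, 87.8 and 71.1 in the Fkbp4 knockdown and 109, 82.5 and 84.1 in the Fkbp5 knockdown. All 3 day 5 libraries were lower than the day 0 libraries, but the day 3 library of the control (96.8) stood above the lowest at day 0 (95.7). Its day 5 difference passed (−0.42, SE 0.10, adjusted p = 0.00401) except when the control genotype was left out (−0.39, adjusted p = 0.055). Orc subunits were 8.42-fold apart per kilobase in the control at day 0 and 20.3-fold apart at day 5, with Orc1 lowest on both days (4.68 and 0.624) and Orc6 (39.4) highest at day 0 and Orc2 (12.7) at day 5. A share of 27.9% of the words of Orc2 is found in other transcripts, those of Nif3l1 among them.

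The loaders and their inhibitor fell together. Cdc6, which recruits the ring with Cdt1, fell by 2.76 and Cdt1 by 2.62 on the log2 scale by day 5. Gmnn, the inhibitor of Cdt1, was 117, 24.8 and 16.4 in control cells, 90.7, 17.5 and 16.4 in the Fkbp4 knockdown and 134, 23.3 and 20.8 in the Fkbp5 knockdown at days 0, 3 and 5. Its day 0 libraries lay far above the others, with a fall of 2.66 (SE 0.12, adjusted p = 4.45e-08).

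Helicase activation genes had a median of −2.09 at day 5 and 7 of the 8 called lower. Dbf4, the regulatory subunit of the Cdc7 kinase and the gene with the highest mean CPM of the 8, was 92.5, 32.8 and 16.1 in control cells, 95.5, 18.5 and 22.2 in the Fkbp4 knockdown and 88.2, 27.6 and 15.5 in the Fkbp5 knockdown. All later libraries were below all day 0 libraries, by 2.35 at day 5 (SE 0.20, adjusted p = 3.19e-06), and the kinase subunit Cdc7 fell by 1.79. Cdc7 was 26.0, 6.14 and 6.27 in control cells, 23.2, 7.58 and 7.76 in the Fkbp4 knockdown and 22.3, 6.57 and 6.55 in the Fkbp5 knockdown, so its later levels lay close together in all genotypes. Mcm10, which helps open the loaded ring, fell by 2.82 and Cdc45, a part of the active helicase, by 1.83.

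The 4 GINS subunits, which form 1 tetramer of the active helicase, also had unequal falls. Gins1 was 23.8, 4.72 and 1.93 in control cells, 22.6, 4.05 and 3.99 in the Fkbp4 knockdown and 22.5, 4.53 and 1.97 in the Fkbp5 knockdown. Days 0 and later did not overlap, and the fall by day 5 was 8.60-fold (log2 −3.10, SE 0.25, adjusted p = 2.76e-06). Like Orc1, Gins1 met the CPM limit only through day 0, so it could enter only as a gene higher on that day. Gins2 fell by 2.74, although 66.2% of its words are shared with the overlapping Gse1, and Gins4 fell by 1.16. Gins3 was 20.03, 17.5 and 16.4 in control cells, 17.6, 12.7 and 9.02 in the Fkbp4 knockdown and 16.2, 14.7 and 15.1 in the Fkbp5 knockdown. Its levels at day 0 overlapped those at days 3 and 5, and its difference at day 5 was −0.44 (SE 0.18, adjusted p = 0.0554). It passed the threshold in 4 of the 18 other settings, with an adjusted p of 0.0396 to 0.413 over all 18. Per kilobase in the control, GINS subunits were 7.41-fold apart at day 0 and 18.4-fold at day 5, when Gins1 was at 1.27 and Gins4 at 23.4.

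**Figure D2:**
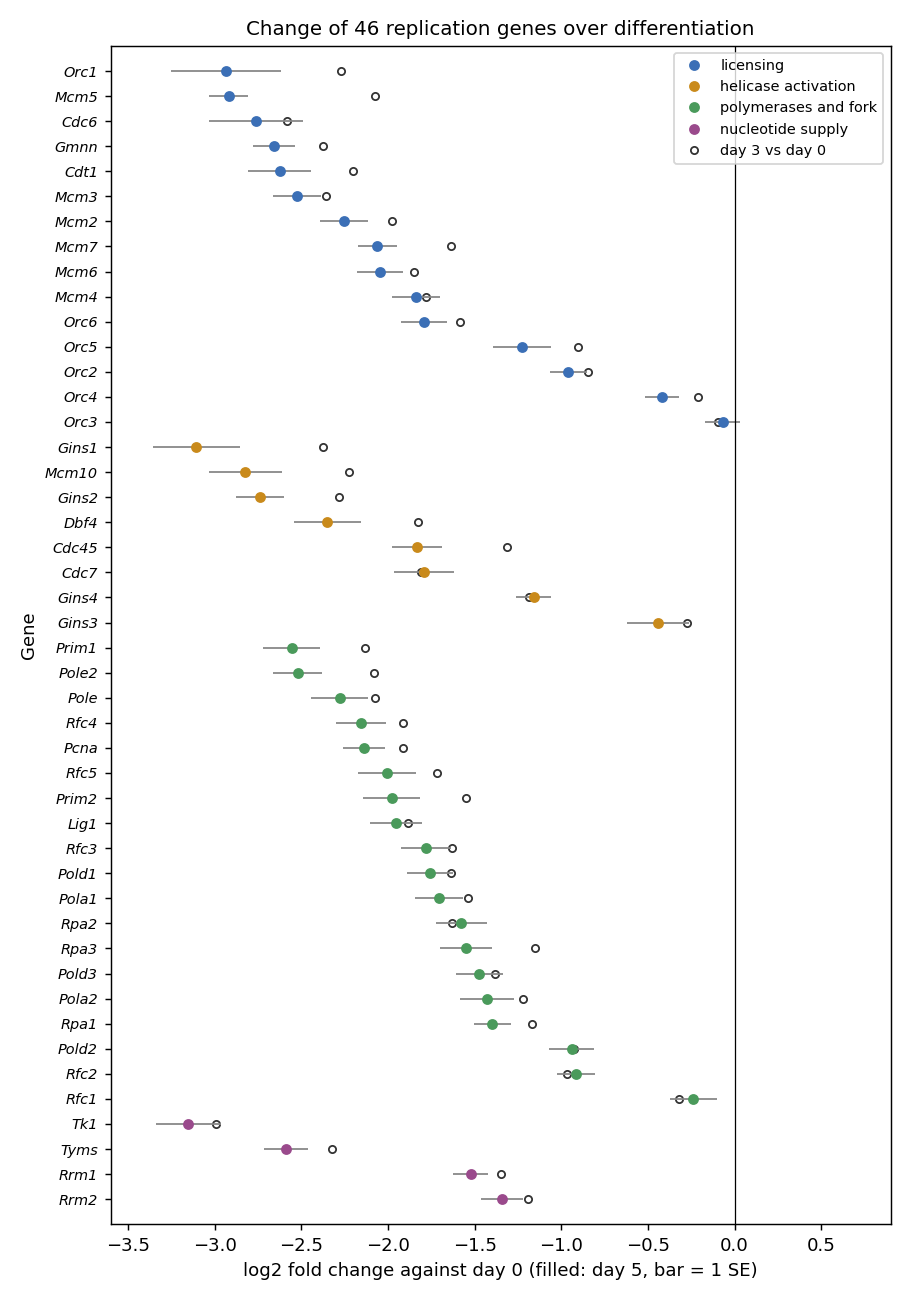
Log2 fold change against day 0 (x axis) for each of the 46 described genes (y axis), ordered within its role. Filled points are day 5 with bars of 1 SE from the edgeR fit over 9 libraries, open points are day 3. Orc3, Orc4, Gins3 and Rfc1 sit nearest to 0, and Tk1 (−3.15) and Gins1 (−3.10) farthest from it.

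Polymerase and fork genes had a median of −1.76 at day 5, with 18 of the 19 called lower. Pcna, the sliding clamp, had the highest mean CPM of the 46, with 633, 192 and 131 in control cells, 572, 144 and 146 in the Fkbp4 knockdown and 575, 139.8 and 126 in the Fkbp5 knockdown. The day 0 libraries were nearly alike and far above all others, and the fall by day 5 was 4.41-fold (log2 −2.14, SE 0.12, adjusted p = 2.16e-07). A share of 23.3% of its words occurs in other transcripts, the pseudogene Pcna-ps2 among them. Prim1, the catalytic primase subunit, had the largest fall of the role and was 119, 28.6 and 17.4 in control cells, 114, 23.4 and 26.2 in the Fkbp4 knockdown and 124, 29.4 and 16.8 in the Fkbp5 knockdown. That is −2.55 at day 5 (SE 0.17, adjusted p = 5.25e-07), with no overlap between day 0 and later, and its partner Prim2 fell by 1.98.

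Of the epsilon subunits of the polymerases, the catalytic Pole fell by 2.28 and Pole2 by 2.52, while the small subunits Pole3 and Pole4, which are outside the 46, fell by 0.32 and 0.61. The alpha subunits Pola1 and Pola2 fell by 1.71 and 1.43. Of the delta subunits, the catalytic Pold1 fell by 1.76 and Pold3 by 1.47. Pold2, another delta subunit, was 40.7, 26.9 and 24.1 in control cells, 58.7, 28.0 and 26.2 in the Fkbp4 knockdown and 56.0, 26.3 and 30.4 in the Fkbp5 knockdown, a fall of 0.94 (SE 0.13, adjusted p = 0.000111). Its lowest day 0 library (40.7, control) still stood above the highest later one (30.4). Lig1, the ligase that joins Okazaki fragments, was 73.3, 19.1 and 14.0 in control cells, 76.5, 18.5 and 22.03 in the Fkbp4 knockdown and 54.2, 17.4 and 16.4 in the Fkbp5 knockdown. It fell by 1.95, with the day 0 libraries apart from all later ones, and the single-strand binding subunits Rpa1, Rpa2 and Rpa3 were 2.63-fold, 2.98-fold and 2.93-fold lower.

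The clamp loader had unequal falls as well. Of the small subunits, Rfc4 fell by 2.16, Rfc5 fell by 2.01 and Rfc3 by 1.78, while Rfc2 fell by 0.92. Rfc1, the large subunit, was 54.8, 38.7 and 47.0 in control cells, 73.7, 51.5 and 52.7 in the Fkbp4 knockdown and 40.3, 43.7 and 41.9 in the Fkbp5 knockdown. The control and the Fkbp4 knockdown had lower levels at both later days than at day 0, and the Fkbp5 knockdown slightly higher ones, so that the days overlapped. The common difference at day 5 was −0.24 (SE 0.13, adjusted p = 0.153). It passed without the day 0 library of the Fkbp5 knockdown (−0.37, adjusted p = 0.0239) and without that genotype (−0.35, adjusted p = 0.0267). Per kilobase in the control, the loader subunits were 4.57-fold apart at day 0, with Rfc1 lowest at 9.10 and Rfc4 highest at 41.6, and 2.6-fold apart at day 5.

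Nucleotide supply genes were all called lower at both days, with a median of −2.06 at day 5. Tk1, the thymidine kinase of S phase cells, was 239, 31.1 and 19.0 in control cells, 234, 22.8 and 33.4 in the Fkbp4 knockdown and 203, 31.5 and 23.4 in the Fkbp5 knockdown. Its fall of 8.90-fold by day 5 (log2 −3.15, SE 0.19, adjusted p = 3.01e-07) was the largest of all 46 in this fit, with no overlap of day 0 and later. Tyms, thymidylate synthase, was 135, 31.9 and 21.4 in control cells, 106, 18.7 and 19.5 in the Fkbp4 knockdown and 122, 22.9 and 19.0 in the Fkbp5 knockdown, and fell by 2.59 without overlap. Rrm2, the small subunit of ribonucleotide reductase, was 459, 212 and 167 in control cells, 558, 196 and 201.4 in the Fkbp4 knockdown and 416, 215 and 197 in the Fkbp5 knockdown. It fell 2.53-fold (log2 −1.34, SE 0.12, adjusted p = 6.31e-06), the smallest fall of the 4, and with 60.1 normalised CPM per kilobase it was the highest of all described genes in the control at day 5. Rrm1, the large subunit, fell by 1.52.

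Outside the 46, a list of 49 further replication genes held pre-initiation factors, fork protection, chromatin assembly and nucleotide enzymes. At day 5, 45 of these were called lower and 2 higher, with a median of −1.53. Of all 12844 genes tested, 3672 were called lower and 3762 higher. Dscc1, a subunit of an alternative clamp loader, fell most (−3.25, SE 0.29), followed by Shmt1 (−2.92, SE 0.27), an enzyme of one-carbon metabolism. The 2 higher genes of the list were Top1, the topoisomerase that relaxes DNA ahead of forks and of transcription, at 1.28 (SE 0.10, adjusted p = 1.97e-06), and Rrm2b. At day 3, 41 of the list were lower and the same 2 higher, where 3318 of all genes were called lower and 3392 higher. Pold4, the small delta subunit, was the one gene of this list called between days 3 and 5 (0.50, SE 0.12, adjusted p = 0.0354), after a fall from day 0. Between these days 484 of all 12844 genes were called higher and 307 lower.

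Further nucleotide enzymes of the same list were mostly lower at day 5, among them the deoxycytidine kinase Dck (−1.93), the nucleoside diphosphate kinase Nme1 (−1.09), the dNTP hydrolase Samhd1 (−0.85) and the nucleotide kinase Cmpk1 (−0.74). Rrm2b, Tk2 and Dguok were not called lower, and they are described here because of that. Rrm2b, the reductase small subunit that works in resting cells, was 38.3, 40.4 and 51.4 in control cells, 33.2, 48.8 and 51.2 in the Fkbp4 knockdown and 33.8, 49.4 and 55.3 in the Fkbp5 knockdown. All later libraries were above all day 0 libraries, by 0.58 at day 5 (SE 0.12, adjusted p = 0.00162). The mitochondrial kinases Tk2 (0.15, SE 0.15, adjusted p = 0.403) and Dguok (0.25, SE 0.14, adjusted p = 0.142) did not pass the test and were the 2 of the 49 not called at day 5. Tk2 was 13.0, 15.8 and 15.2 in control cells, 15.2, 16.4 and 15.3 in the Fkbp4 knockdown and 12.1, 14.5 and 14.2 in the Fkbp5 knockdown, and the days overlapped.

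**Figure D3:**
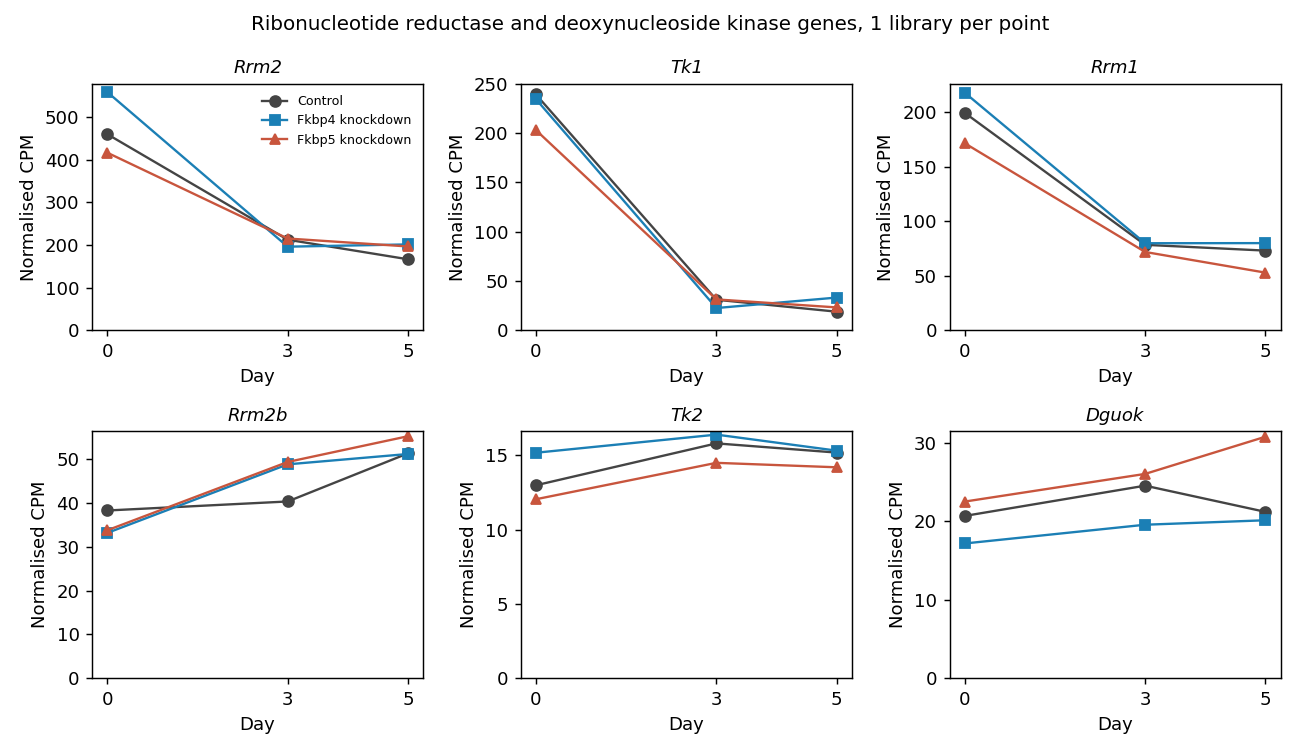
Normalised CPM (y axis, from 0) against the day (x axis) for ribonucleotide reductase subunits and deoxynucleoside kinases, 1 library per point and 1 line per genotype. Rrm2, Tk1 and Rrm1 drop after day 0 in each genotype, Rrm2b rises, and Tk2 and Dguok were not called.

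From day 3 to day 5 the single libraries of the 3 genotypes had unlike values. In the control 39 of the 46 genes were lower at day 5 than at day 3 and the median log2 ratio was −0.48. In the Fkbp5 knockdown 39 were lower as well, with a median of −0.32. In the Fkbp4 knockdown 19 were lower and 27 higher, with a median of 0.03, and the sum stood at 1512 and 1502. The median of all genes tested lay between 0.00 and 0.01 in each genotype. These are single libraries, and the difference between genotypes was not tested. Common to the 3 genotypes, the median from day 3 to day 5 was −0.21 with 1 gene called. At an unadjusted p under 0.05 there were 11 (23.9%), near the 22% of all genes. The median was −0.38 with 3 called when the Fkbp4 knockdown was left out, and −0.13 with 0 called when the control was left out. The counts over all genes in those refits are not given here. The sum of the 5 proliferation markers went from 380 at day 3 to 241 at day 5 in the control. It went from 524 to 217 in the Fkbp5 knockdown and from 306 to 357 in the Fkbp4 knockdown. Their median log2 ratios were −0.50, −1.35 and 0.28 in that order. In the Fkbp5 knockdown their median fall was thus larger than that of the 46 (−0.32). The part of these markers in the result was not tested.

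The title of the series names Fkbp5 and Cdk4, a kinase of the G1 phase, in myoblast differentiation, and the design sets the Fkbp5 knockdown beside the control on 3 days. None of the 46 was called (edgeR, 0 called, 4 or 8.7% at an unadjusted p under 0.05), where 2.09% of all genes were called in either direction and 15.8% had an unadjusted p under 0.05. DESeq2 and limma voom also called 0. The median difference was −0.05, with 29 lower and 17 higher, beside 0.00 for all genes. The smallest p belonged to Rrm1 (−0.26, SE 0.10, adjusted p = 0.238), Mcm7 (−0.28, SE 0.11, adjusted p = 0.247) and Rpa2 (−0.39, SE 0.16, adjusted p = 0.25). Rpa2, the middle subunit of the single-strand binding complex, was 56.4, 22.7 and 17.1 in control cells at days 0, 3 and 5, 60.1, 19.0 and 21.6 in the Fkbp4 knockdown and 47.7, 12.0 and 16.2 in the Fkbp5 knockdown. The Fkbp5 knockdown was the lowest of the 3 on each day. A missed threshold does not show that these genes were alike.

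Taken day by day as single libraries without a test, the median log2 ratio of the Fkbp5 knockdown to the control was −0.09 at day 0, −0.12 at day 3 and −0.04 at day 5, with 30, 32 and 26 of the 46 lower. None of the 46 passed 2-fold with at least 50 reads in the larger library, where 1.3%, 1.59% and 2.11% of all genes did at days 0, 3 and 5. Cdc6 at day 5 had the widest ratio (−1.58), from 7 reads in the knockdown and 19 in the control. At day 0, 12 genes had a 95% count interval wholly below 0 and 3 wholly above, where 12.2% and 12.5% of all genes with reads in both libraries did. Mcm4 had the lowest ratio of that day (−0.58, interval −0.80 to −0.35). At day 3 there were 8 below and 1 above (14.3% and 14.7% of all genes), and at day 5 there were 2 and 2 (15.1% and 14.4%). Beside this, the 8 myotube markers had a median of −0.65 against the control with 2 called lower, and their sum was 3244 at day 3 and 6863 at day 5, against 5492 and 10716 in the control. The 5 proliferation markers summed to 524 at day 3 and 217 at day 5, against 380 and 241 in the control. At day 3 they lay above the control and the median replication gene below it. At day 5 both lay below it, while the sum of the 46 lay above (1335 against 1308). The part of these markers in the replication genes' values was not tested.

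In the Fkbp4 knockdown 1 of the 46 was called against the control, where 0.825% of all genes were called lower, and the median was 0.05. That gene was Rpa3, the smallest subunit of the single-strand binding complex. It stood at 34.8, 18.2 and 16.2 at days 0, 3 and 5 in the Fkbp4 knockdown, at 66.0, 32.3 and 21.9 in the control and at 79.6, 29.2 and 21.4 in the Fkbp5 knockdown. On each day the Fkbp4 knockdown was lowest, and its difference to the control was −0.76 (SE 0.15, adjusted p = 0.0457). The call was lost with 2 other scalings (adjusted p = 0.0508 and 0.0615), without any 1 library of the Fkbp4 knockdown or the control (0.0752 to 0.285) and without the day 5 library of the Fkbp5 knockdown (0.0577). By day, the ratio was −0.93 (95% count interval −1.20 to −0.65), −0.83 (−1.22 to −0.45) and −0.44 (−0.90 to 0.01). Tyms (−0.42, SE 0.12, adjusted p = 0.154) and Gins3 (−0.47, SE 0.18, adjusted p = 0.231) had the next smallest p and did not pass.

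Day by day, most of the 46 lay on 1 side of the control in the Fkbp4 knockdown, and the side differed between days. The median log2 ratio was 0.07 at day 0 (28 of 46 higher), −0.20 at day 3 (34 lower) and 0.29 at day 5 (36 higher), while the median of all genes was 0.03, 0.00 and 0.00. At day 0, 13 genes had a count interval wholly above 0 and 5 wholly below, where 14.8% and 12.4% of all genes with reads in both libraries did. At day 3 there were 2 above and 10 below (13.3% and 15.2% of all genes), and at day 5 there were 11 above and 1 below (11.2% and 13.3%). Tk1 had the highest ratio among genes with at least 50 reads, 0.81 (0.41 to 1.22), from 159 reads in the knockdown and 79 in the control. Gins1 had a ratio of 1.05 from 19 and 8 reads. None passed 2-fold with at least 50 reads, where 0.965%, 1.33% and 1.36% of all genes did at days 0, 3 and 5. The 5 proliferation markers had summed levels of 306 at day 3 and 357 at day 5, against 380 and 241 in the control, on the same side as the replication genes on both days. In the Fkbp5 knockdown these markers and the median replication gene lay on opposite sides of the control at day 3. At day 0 the summed myotube markers were 223 in the Fkbp4 knockdown and 87.0 in the control. The part of either marker list in these ratios was not tested.

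**Figure D4:**
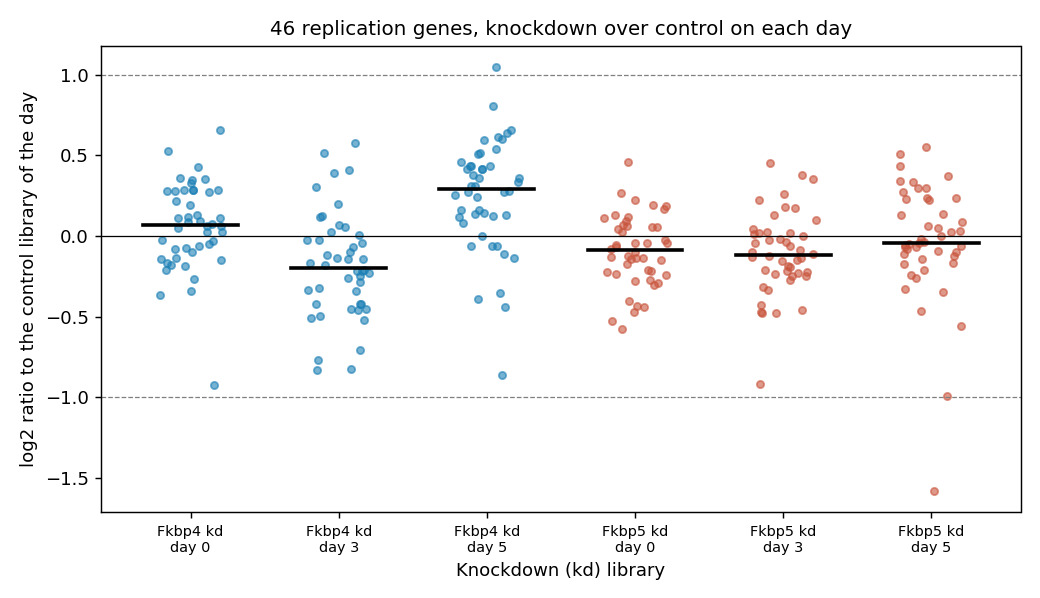
Log2 ratio of each knockdown library to the control library of the same day (y axis) for the 46 described genes, 1 point per gene, at days 0, 3 and 5 (x axis). Black bars are medians and dashed lines mark 2-fold. The Fkbp4 knockdown medians are 0.07, −0.20 and 0.29, those of the Fkbp5 knockdown −0.09, −0.12 and −0.04, and both points outside the dashed lines rest on fewer than 50 reads (Gins1 and Cdc6).

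Set against each other, the 2 knockdowns differed in 6 members: 4 lower and 2 higher in the Fkbp5 knockdown, where 6.03% of all genes were called lower and 6.81% higher. In either direction that is 13% of the members and 12.8% of all genes, so the count is at the background and the values of the 6 are given as a description. The median of the 46 was −0.12 and that of all genes −0.01. Mcm7 went through 117, 37.1 and 29.7 at days 0, 3 and 5 in the Fkbp5 knockdown, 172, 49.4 and 42.0 in the Fkbp4 knockdown and 141, 51.7 and 31.1 in the control. The Fkbp5 knockdown was lowest on each day (−0.50, SE 0.11, adjusted p = 0.0177), and 33.4% of the words of Mcm7 are shared with other transcripts. Mcm4 was 66.8, 25.6 and 20.1 in the Fkbp5 knockdown, 108, 31.4 and 32.5 in the Fkbp4 knockdown and 99.5, 21.9 and 24.1 in the control. The 2 knockdowns stood apart on each day (−0.57, SE 0.14, adjusted p = 0.0269), with the control near the Fkbp4 knockdown at day 0 and near the Fkbp5 knockdown later.

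Rrm1 was 172, 72.0 and 53.1 at days 0, 3 and 5 in the Fkbp5 knockdown, 218, 80.0 and 80.2 in the Fkbp4 knockdown and 199.7, 78.6 and 73.3 in the control, a difference between the knockdowns of −0.36 (SE 0.10, adjusted p = 0.0417). Rfc1, whose values are given above, differed by −0.47 (SE 0.13, adjusted p = 0.0428). Gmnn was higher by 0.46 (SE 0.12, adjusted p = 0.0301) and Rpa3 by 0.81 (SE 0.15, adjusted p = 0.00814), with the Fkbp5 knockdown above the Fkbp4 knockdown on each day for both. None of the 6 stayed called in every setting. Without the day 0 library of the Fkbp4 knockdown 0 of the 46 were called, and without its day 5 library, or the day 0 or day 5 library of the Fkbp5 knockdown, 1 was, and without the day 0 library of the control 3 were. The counts over all genes in these refits are not given here. In the list of 49 further replication genes 5 were lower and 4 higher, where 6.03% and 6.81% of all genes were. They were led by Top1 (−0.79, SE 0.10, adjusted p = 0.00132) and Dnmt1, the maintenance methyltransferase (−0.67, SE 0.14, adjusted p = 0.0131), and by Rnaseh2c (0.50), Pold4 (0.49) and Dguok (0.48). Against the control, 0 of these 49 were called in either knockdown by edgeR (6 for Fkbp5 and 10 for Fkbp4 at an unadjusted p under 0.05, where 15.8% and 16.4% of all genes had one).

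**Figure D5:**
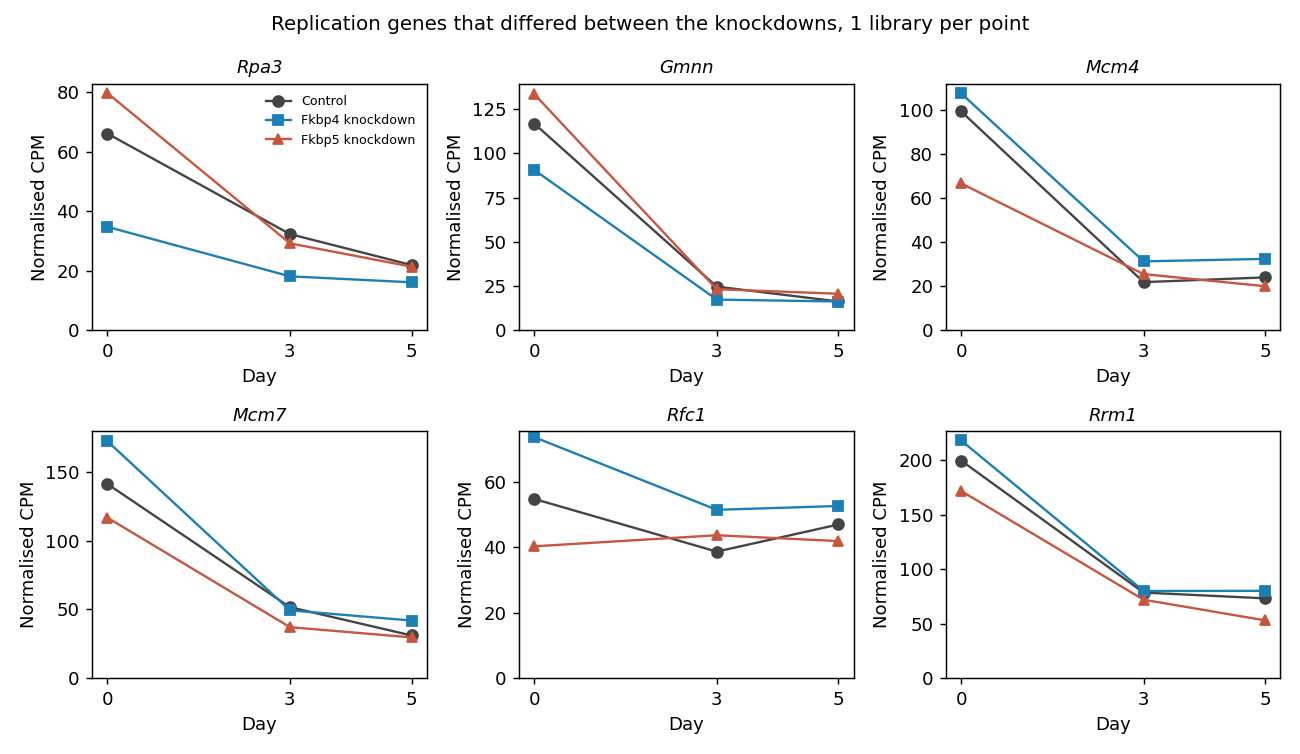
Normalised CPM (y axis, from 0) against the day (x axis) for the 6 members called between the knockdowns, 1 library per point and 1 line per genotype. Rpa3 and Gmnn are lower in the Fkbp4 knockdown than in the Fkbp5 knockdown on each day, and Mcm4, Mcm7, Rfc1 and Rrm1 are higher.

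A further fit, with 2 residual degrees of freedom, asked for each knockdown if its effect at days 3 and 5 differed from that at day 0. None of the 46 was called for either knockdown, and 0 had an unadjusted p under 0.05 (4.52% of all genes for Fkbp5 and 2.96% for Fkbp4), where 0.0374% of all 13372 genes were called in each. DESeq2 and limma voom called 0 as well. The largest estimate for the Fkbp5 knockdown was that of Mcm4 (0.56, SE 0.26, adjusted p = 0.962), whose ratio to the control was −0.58 at day 0, 0.22 at day 3 and −0.26 at day 5. For the Fkbp4 knockdown Mcm4 had the smallest p (0.40, SE 0.25). The SE for the Fkbp4 knockdown differed between genes, with 0.22 for Rpa1 and Orc2, 0.25 for Mcm4, 0.42 for Dbf4, 0.58 for Cdc6 and 0.67 for Orc1. These SEs show the precision that 1 library per genotype and day leaves.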

How the data were processed

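Polyadenylated RNA of 9 C2C12 libraries was sequenced by the submitters, and the authors deposited whole-number read counts per Ensembl gene, without normalisation. Per the submitters' processing notes, CASAVA 1.8, HISAT2 2.0.2, Subread, featureCounts 1.4.6 and the build mm10 were used. The annotation release, strand setting and treatment of reads with several positions are not given in the sources used here. Of 47728 genes in the files, 47309 were matched by identifier to GENCODE M21, and the 419 others held at most 0.0188% of a library's counts.

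Counts were fitted with edgeR 4.0.16 in R 4.3.3: filterByExpr kept 12844 genes, TMM factors were 0.942 to 1.038, and the quasi-likelihood F test (glmQLFit, glmQLFTest) used genotype and day as additive terms, with 4 residual degrees of freedom. The interaction fit kept 13372 genes. Tests are two-sided, adjusted by Benjamini and Hochberg over all genes tested, and called at an adjusted p under 0.05. The SE was back-calculated from the log2 fold change and F. The additive fit, but not the interaction fit, was tested on simulated counts. These held no genotype effect that differed between days, so they do not test how such effects bear on the p-values. Ratios within a day carry exact 95% intervals from the 2 counts. Shared words are 31-base stretches of a gene's GENCODE M21 transcripts found in transcripts of other genes. Both strands of the other transcripts were searched, so overlap with a gene on the opposite strand counts as shared.

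The listed genes, roles, further lists, markers and named genes were chosen with earlier results of these data known. In each role, values by library are given for the gene with the highest mean CPM, the largest and the smallest day 5 change, each gene called in a knockdown comparison, and the smallest p in those comparisons. Alternatives were other scalings (RLE, library totals), no filter, DESeq2 1.42.0, limma 3.58.1 voom, no mitochondrially encoded genes, other CPM minimums, no day term, and leaving out each library, day or genotype. Leaving out members with over 20% shared words was added after seeing the data.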

Additional observations from a re-analysis of the deposited data

Results flagged for a closer look

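Rfc1, the large subunit of the clamp loader, was picked out because its direction over differentiation was not the same in all genotypes. In the Fkbp5 knockdown both later libraries (43.7 and 41.9 normalised CPM) stood above the day 0 library (40.3). In the control (54.8, then 38.7 and 47.0) and the Fkbp4 knockdown (73.7, then 51.5 and 52.7) both stood below it. The interaction of the Fkbp5 knockdown with the later days was 0.44 on the log2 scale (SE 0.24, adjusted p = 0.962, edgeR), which did not pass the threshold. Each level rests on 1 library.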

How the results depend on the processing

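Falls from day 0 were the most stable result: 36 to 43 genes were called at day 3 and 37 to 45 at day 5 over all settings, the lowest with members of at least 20 CPM, which leaves fewer genes, and 42 genes were called in every refit at each day. Of the genes followed singly, 1 turned its direction: Orc3 at day 5, −0.11 to 0.02 over the leave-outs, 0.02 without the day 0 library of the Fkbp5 knockdown. Between days 3 and 5 the count of 1 became 2 with library totals, 4 with no filter, 0 without the control genotype, 3 without the Fkbp4 knockdown, and 1 to 2 with 1 library left out. The Fkbp4 knockdown's count of 1 became 0 with RLE factors, library totals, no day term, and without day 0, day 3 or day 5, and was 0 to 1 with 1 library left out. The count of 6 between the knockdowns became 13 with no filter, 3 with DESeq2, 0 without day 0 and with no day term, 1 without day 5, and 0 to 9 with 1 library left out. For none of these settings is the matching count over all genes given here. A moved count therefore does not show that these genes moved apart from the rest. The cause of the moves was not tested. The Fkbp5 knockdown's count against the control and both interaction counts were 0 in every setting run. The interactions could not be refitted without a day 0 library. The labels give no replicate numbers. The day term of the fit pairs the libraries of a day, and the values with no day term are the unpaired ones. Depth limits Orc1, Cdc6 and Gins1 at days 3 and 5, where libraries held 5 to 28 reads of each.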
